A study of Mus musculus with 4 samples.

Results

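The immediate early and activator protein 1 (AP-1) genes were examined in cultured mouse macrophages of 2 genotypes. These 10 genes were taken by symbol (Fos, Fosl2, Jun, Junb, Jund, Egr1, Egr2, Atf3, Ier2 and Ier3), and all 10 were found among the 34745 genes of the deposited table. All 10 also passed the filter on low counts that left 12418 genes for testing. The study's text describes the cells as bone marrow-derived macrophages. The WT libraries came from G3bp1f/f mice, whose G3bp1 gene is floxed. The KO libraries (G3bp1mac-/-) came from such mice carrying a Cre recombinase driven by Lyz2, a promoter that is also active in monocytes and granulocytes. Each genotype had 2 libraries, numbered 1 and 2, and all 4 came from cells grown in DMEM with serum. No stimulus is named for any library, and neither the animals behind each library nor their age is given. Where libraries of a genotype share a source, the p-values below measure only the spread between these libraries.

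AP-1 is a family of dimeric transcription factors built from Jun, Fos and ATF proteins that share a basic leucine zipper. Fos proteins need a partner, whereas Jun proteins can also pair with each other, so that the supply of each subunit sets which dimers can form. Many of these genes belong to the immediate early class: their transcription starts within minutes of a signal such as serum, a cytokine or a microbial product, needs no new protein, and yields short-lived mRNAs. In macrophages, MAP kinases and NF-kappaB are known to drive them during adhesion and inflammatory activation.

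Fos and Fosl2 encode Fos subunits, Jun, Junb and Jund encode Jun subunits, and Atf3 encodes an ATF subunit that often restrains inflammatory genes. Egr1 and Egr2 encode zinc finger factors that bind GC-rich sites. Ier2 and Ier3 encode small immediate early proteins, of which Ier3 is a known NF-kappaB target linked to cell survival. Jun, Junb, Jund and Ier2 are 4 genes with 1 exon in their main annotated transcript. On GRCm38, Fos lies on chromosome 12 from 85473890 to 85477273, Jun on chromosome 4 from 95049034 to 95052222, Junb on chromosome 8 from 84976909 to 84978748 and Ier3 on chromosome 17 from 35821684 to 35822923. Jund (70697739 to 70700616) and Ier2 (84661331 to 84662852) also lie on chromosome 8, Fosl2 on chromosome 5 (32135801 to 32157842), Atf3 on chromosome 1 (191170296 to 191218039) and Egr2 on chromosome 10 (67535475 to 67542188). Whether counting used the strand is not stated, and without it the reads of a gene and its antisense partner cannot be told apart. The antisense gene Junos, which overlaps Jun, had between 15 and 34 counts per library, and Gm11175, antisense to Jund, had between 5 and 10. Both lay far below their partners.

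The promoters of 4 of these genes are shown because their transcripts separated the libraries in opposite directions, as described below: Jun and Fos on one side, Junb and Ier3 on the other. Each line gives 150 bases that end just before the annotated gene start, 5′ to 3′ on the coding strand, from RefSeq on GRCm38.p6. The windows are chr12:85473740-85473889 (plus strand) for Fos, chr4:95052223-95052372 (minus) for Jun, chr8:84978749-84978898 (minus) for Junb and chr17:35821534-35821683 (plus) for Ier3. Capitals mark matches to the motifs named after the sequences.
Fos: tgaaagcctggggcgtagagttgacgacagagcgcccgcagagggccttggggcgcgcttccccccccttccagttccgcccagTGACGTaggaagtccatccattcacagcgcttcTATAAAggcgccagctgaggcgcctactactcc
Jun: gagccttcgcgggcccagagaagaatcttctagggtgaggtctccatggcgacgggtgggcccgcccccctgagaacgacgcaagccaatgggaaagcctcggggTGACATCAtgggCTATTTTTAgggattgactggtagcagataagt
Junb: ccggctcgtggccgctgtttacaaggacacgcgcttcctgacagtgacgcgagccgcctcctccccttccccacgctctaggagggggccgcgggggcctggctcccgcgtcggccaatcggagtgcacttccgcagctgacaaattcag
Ier3: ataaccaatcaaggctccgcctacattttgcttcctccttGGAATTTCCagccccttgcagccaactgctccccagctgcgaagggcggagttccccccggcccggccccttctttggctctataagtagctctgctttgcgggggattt
RefSeq windows were at hand for 8 of the 10 genes. The letters searched, on both strands of the 250 bases before the RefSeq transcript start nearest to the annotated gene start, were TGACTCA (AP-1 site), TGACATCA (a site of Jun and ATF dimers), TGACGT (core of the cAMP response element), CTATTTTTA (a MEF2 site), GGAATTTCC (an NF-kappaB site), GCGGGGGCG or GCGTGGGCG (EGR sites), TATAAA (the core promoter box of that sequence), and the CArG box bound by serum response factor. Some were chosen after the windows were read, and none contains another. The Fos window held TGACGT, found in 6.47% of 32851 mouse windows, and the core promoter box, found in 12.4%. The Jun window held TGACATCA from -45 to -38 and CTATTTTTA from -33 to -25, counted back from that start, and 2.93% and 0.454% of windows held these. GGAATTTCC stood in the Ier3 window (0.286% of windows), and none of the motifs stood in the Junb window. Of the genes whose windows are not shown, Fosl2 had an EGR site (3.06% of windows) and Atf3 the core TGACGT, at transcript starts 671 and 34706 bases from the annotated gene start, while Jund and Egr2 had none. TGACTCA, present in 4.46% of windows, and the CArG box, in 1.47%, were in none of the 8. A match shows letters only, not binding.

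The table held between 16724241 and 19747909 counts per library. Levels are given as CPM, each gene's count scaled to a library of fixed size after TMM normalization, and a count of 0 allowed up to 0.152 to 0.188 CPM, counting error only. G3bp1, the targeted gene, which encodes a stress granule protein, had 104 and 180 CPM in WT and 70.1 and 117 CPM in KO. Its log2 fold change was -0.61 with an SE of 0.40 (adjusted p 0.904 by edgeR). It ran from -1.02 without KO replicate 2 to -0.19 without WT replicate 2, and within the numbers the log2 ratio was -0.57 and -0.63. The genotypes overlapped, and these whole-gene counts do not show which exons were lost. From its own mRNA and protein assays, the study reports an efficient loss of G3BP1 in bone marrow-derived macrophages of the KO mice. All 10 macrophage markers were tested, and their summed level ran from 21380 to 26690 CPM. The summed level of 10 stromal markers was 75.5 and 88.7 CPM in WT against 331 and 304 CPM in KO. That of 9 neutrophil markers was 28.2 and 25.7 CPM against 7.88 and 11.8 CPM, with Mpo and Elane at 0 counts in every library. Markers of mast cells and basophils, B cells and erythroid cells were also lower in both KO libraries (sums of 34.4 and 37.1, 21.8 and 22.6, and 9.24 and 6.84 CPM in WT against 18.9 and 22.9, 11.7 and 11.1, and 1.66 and 2.29 CPM in KO), while those of endothelial, dendritic, and T and NK cells overlapped between the genotypes, at sums of up to 7.13, 6.50 and 1.05 CPM. The part of these cells in the values below was not tested. In bulk RNA, fewer cells of a type and less RNA per cell cannot be told apart.

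Levels are first compared between genes as FPKM, which corrects for gene length. Atf3 had the highest mean, 172 FPKM (118 to 198 over the 4 libraries), at percentile 97.8 of the tested genes. Junb followed at 96.2 FPKM, then Jund at 50.9, Jun at 44.8, Ier3 at 35.4, Ier2 at 18.3, Egr2 at 8.49, Fos at 3.13, Fosl2 at 1.88 and Egr1 at 0.202 FPKM. On the deposited FPKM the order was firm only lower down. Ier2 exceeded Egr2, Egr2 exceeded Fos, and Fosl2 exceeded Egr1 in every pair of libraries, whereas the neighbours from Atf3 down to Ier2 overlapped, as did Fos and Fosl2 over all libraries, although Fos was above Fosl2 within each of the 4. Jund and Jun changed places between libraries, with Jund above Jun in 2 of 4. The cells thus held Jun subunit and Atf3 transcripts at far higher levels than those of the Fos subunits, and Egr1, the prototype zinc finger member, sat at percentile 6.60. For Fos and Egr1, the length implied by count and FPKM (3792 and 7520 bases) was longer than the locus (3384 and 5162 bases), so their FPKM was divided by more bases than the annotated gene holds. The implied lengths of Egr2, Fosl2 and Jund (5426, 11608 and 2878 bases) also exceeded their main annotated transcripts (2965, 6537 and 1668 bases). The order of genes by FPKM therefore rests on these lengths and could differ on transcript length.

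**Figure D1:**
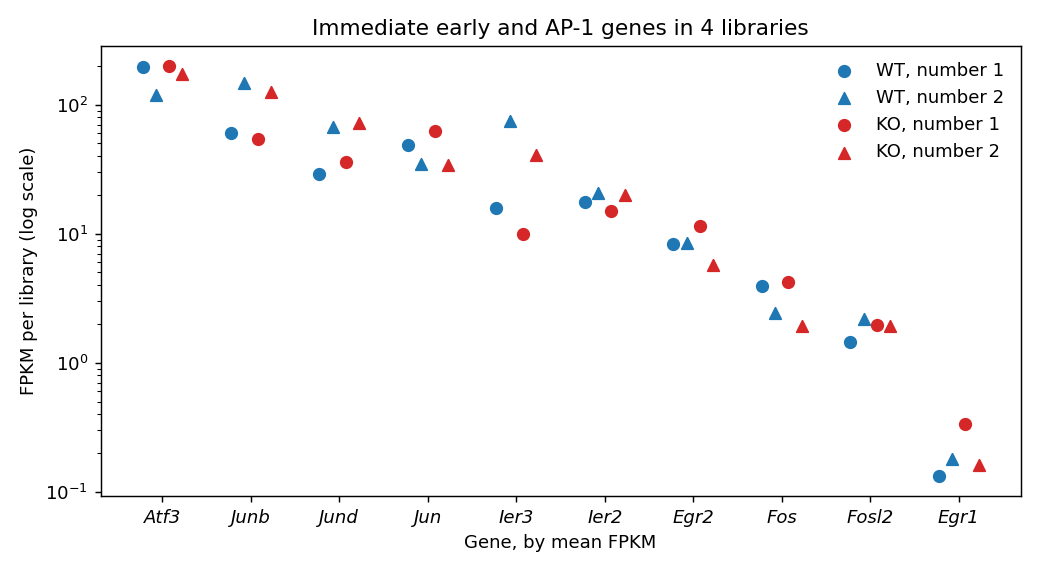
Level of each gene in each library, as deposited FPKM on a log axis, with circles for number 1, triangles for number 2, blue for WT and red for KO. Junb, Jund and Ier3 have both triangles above both circles, Jun and Fos have both below, and for no gene do both red points lie on the same side of both blue points.

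The design asked whether the genotypes differed. By edgeR's quasi-likelihood test none of the 10 genes passed: it called 0 of them at an adjusted p under 0.05 and a fold change over 2, where 0% of all 12418 genes were called. At an unadjusted p under 0.05 the count was also 0 of 10, against 6.63% of all tested genes (4.64% higher and 1.99% lower in KO). DESeq2 and the edgeR exact test also called 0 of the 10, where they called 1.46% and 1.84% of all genes, and so did the quasi-likelihood test with a term for the replicate number, which called 5.35%. The genotypes overlapped for all 10 genes, whereas 36.9% of the tested genes had libraries that did not overlap. The median log2 fold change of KO to WT was -0.10 for the 10 genes and 0.04 over all tested genes, and 4 of the 10 lay above 0 against 54.6% of all genes. The spread between libraries of a genotype leaves room for sizeable changes in either direction, as the intervals below show.

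Among the Jun subunits, Junb had 116 and 286 CPM in WT and 89.2 and 230 CPM in KO for numbers 1 and 2. Both genotypes spanned more than a 2-fold range. Its log2 fold change was -0.33 (95% confidence interval -1.89 to 1.23, edgeR adjusted p 0.974). Jund had 88.2 and 203 CPM in WT and 92.2 and 208 CPM in KO, so that the genotypes lay almost on top of each other within each number. Its log2 fold change was 0.04 (interval -1.37 to 1.46). Jun had 161 and 117 CPM in WT and 179 and 108 CPM in KO, with the KO pair enclosing the WT pair. Its log2 fold change was also 0.04 (interval -0.82 to 0.91), a value so near to 0 that its sign turned under other scalings.

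The Fos subunits were scarcer than the Jun subunits, at percentiles 47.5 (Fos) and 36.2 (Fosl2) of the tested genes by mean FPKM. Fos, the founding subunit, had 15.7 and 9.72 CPM in WT and 14.4 and 7.36 CPM in KO, so that the ranges overlapped. Its log2 fold change was -0.22 (interval -1.33 to 0.89, edgeR adjusted p 0.977). Fosl2, which encodes the Fra-2 subunit, had 17.4 and 27.0 CPM in WT and 20.4 and 22.3 CPM in KO. Both KO values stood inside the WT range, and the log2 fold change was -0.06 (interval -0.79 to 0.67).

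By CPM, Atf3 was the most abundant of the 10 genes, with between 28.2% and 51.7% of their summed CPM. By FPKM, Junb was higher than Atf3 in WT 2 (146 against 118 FPKM), and Atf3 was higher in the other libraries. Atf3 had 527 and 320 CPM in WT and 455 and 448 CPM in KO. The KO libraries were close to each other and lay inside the WT range, and the log2 fold change was 0.09 (interval -0.69 to 0.87, edgeR adjusted p 0.987). Of the zinc finger factors, Egr2 had 47.1 and 48.8 CPM in WT and 55.7 and 31.2 CPM in KO, here with the KO pair around the WT pair (log2 fold change -0.14, interval -0.99 to 0.70). Egr1 (chromosome 18, 34859823 to 34864984) was the rarest, at 17 and 23 counts in the WT libraries, 42 in KO 1 and 24 in KO 2. KO 1 had the highest count. Its level was 2.25 CPM, with an exact Poisson 95% interval of 1.62 to 3.04 CPM. The intervals of the other libraries were 0.610 to 1.68 (WT 1), 0.914 to 2.16 (WT 2) and 0.781 to 1.81 CPM (KO 2). All cover counting error only, and their overlap is not a test of a difference. The log2 fold change of Egr1 was 0.48 (interval -0.78 to 1.73, edgeR adjusted p 0.961), and without KO replicate 1 it was -0.03.

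Ier3 had the widest spread. WT 1 had 303 counts and WT 2 had 1436, while KO 1 had 189 and KO 2 had 912, or 18.7, 90.1, 10.1 and 46.3 CPM in that order. KO 1 was the lowest library and WT 2 the highest, but KO 2 lay above WT 1. WT averaged 54.4 ± 50.5 CPM and KO 28.2 ± 25.6 CPM (SD, n = 2 libraries). The log2 fold change was -0.95 with an interval from -3.39 to 1.498 (edgeR adjusted p 0.959), the largest of the 10 in size. With a term for the replicate number it was -0.92 (edgeR adjusted p 0.00373), under the minimum fold change, with a gene length correction added it was -0.62 (edgeR adjusted p 0.115), and with a GC correction added instead it was called (-1.01, edgeR adjusted p 0.0159). Within the numbers the ratio was nearly equal, -0.88 in number 1 and -0.96 in number 2. The pooled value turned on the libraries used: it was 0.56 without WT replicate 2 and -2.42 without KO replicate 2. Ier2 had 28.2 and 33.4 CPM in WT and 20.4 and 30.3 CPM in KO, with a log2 fold change of -0.28 (interval -0.99 to 0.43). As each library was left out, this value ran from -0.60 to -0.025.

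Each replicate number holds 1 library per genotype, so the KO to WT ratio within a number has no error of its own. This ratio had the same sign in both numbers for 5 of the 10 genes, where 65.0% of all tested genes did. Fos (-0.12 and -0.40), Junb (-0.37 and -0.31), Ier2 (-0.47 and -0.14) and Ier3 were the 4 with lower KO values in both, and Jund was close to 0 in both (0.06 and 0.03). The other 5 crossed 0. Egr1 had 1.08 in number 1 and -0.24 in number 2, Egr2 had 0.24 and -0.64, and Atf3 had -0.21 and 0.48. Fosl2 (0.23 and -0.28) and Jun (0.15 and -0.12) did so with smaller values.

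**Figure D2:**
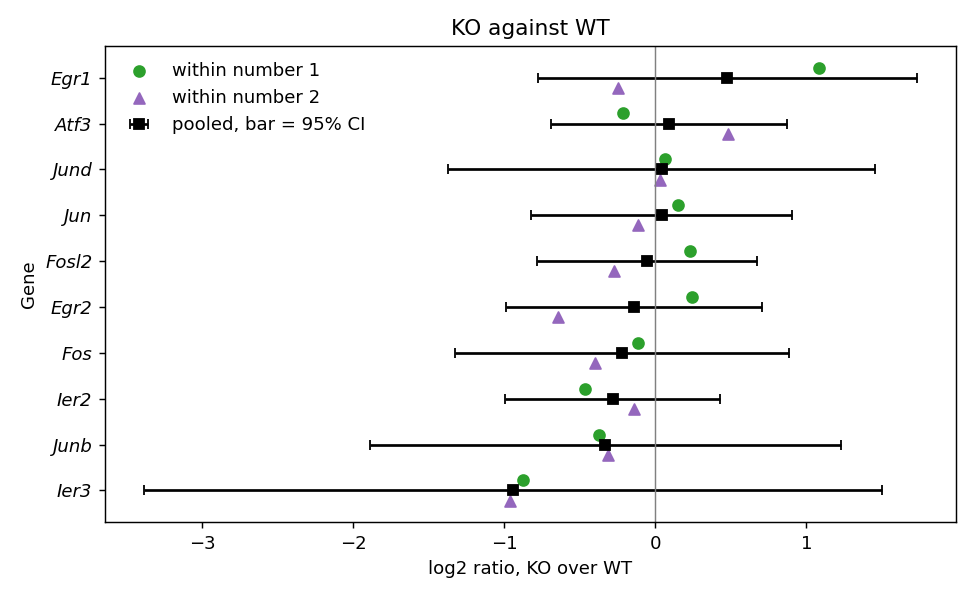
Log2 ratio of KO to WT for each gene, with the pooled edgeR estimate and its 95% confidence interval as black squares and bars, and the ratio within number 1 (green circles) and within number 2 (purple triangles). Every interval crosses 0, and the estimates run from -0.95 for Ier3 to 0.48 for Egr1.

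The 10 genes separated the libraries by replicate number rather than by genotype. For 8 of the 10, both libraries of a number lay above both of the other, against 48.4% of all tested genes. Number 2 was the higher for 5 of them (Junb, Jund, Ier2, Ier3 and Fosl2; 25.2% of all genes) and the lower for 3 (Fos, Jun and Atf3; 23.2%). What the number stands for is not stated, so these values are given as a description, with no test. On library totals alone, without TMM, Fosl2 overlapped and the count was 7. It was 9 after a gene length correction and 7 after a GC correction. The share of 48.4% holds for the TMM levels, and no such share is given for the other scalings.

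Ier3 showed the widest gap, 4.82-fold higher in number 2 in WT and 4.56-fold in KO. Junb was 2.47-fold and 2.58-fold higher, and Jund 2.30-fold and 2.25-fold. These 3 genes were over 2-fold higher in both genotypes, as 4.36% of all tested genes were. In the other direction, Fos was 1.61-fold higher in number 1 in WT and 1.96-fold in KO, and Jun 1.37-fold and 1.65-fold. None of the 10 was over 2-fold lower in number 2 in both genotypes (2.42% of all genes). Atf3 was 1.65-fold higher in number 1 in WT but only 1.02-fold in KO. Ier2 was 1.18-fold and 1.48-fold higher in number 2. Egr2 and Egr1 overlapped between the numbers. Their log2 ratios of number 2 to number 1 were -0.83 and -0.87 in KO and 0.05 and 0.45 in WT, and this difference was not tested. Removing a trend with gene length left the order of the main genes: 2.47 and 1.98 for Ier3 on the log2 scale, 1.39 and 1.21 for Junb, 1.20 and 1.08 for Jund, -0.73 and -1.02 for Fos, and -0.48 and -0.80 for Jun, in WT and KO.

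**Figure D3:**
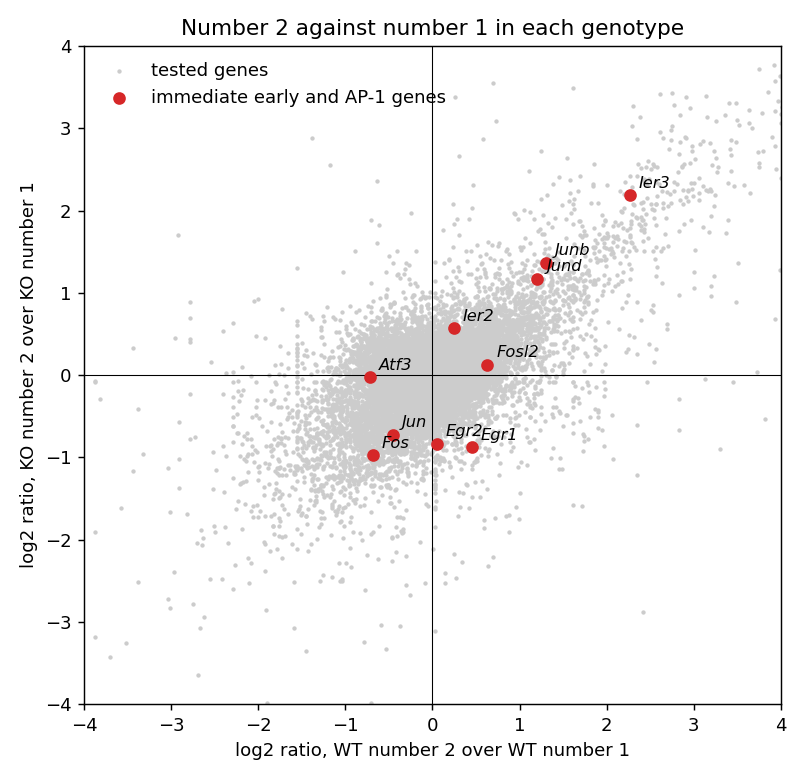
Log2 ratio of number 2 to number 1 in WT (x axis) and in KO (y axis) for the 10 genes (red) and the tested genes (grey, 112 of which fall outside the axis limits). Ier3, Junb and Jund lie far up the diagonal, Jun and Fos lie below 0 on both axes, and Egr1 and Egr2 lie below 0 on the KO axis only.

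These opposite differences changed the make-up of the Jun family. Jun, Junb and Jund together had 365 and 606 CPM in WT and 360 and 546 CPM in KO, higher in both libraries numbered 2. Jun gave 44.2% and 49.6% of this sum in the libraries numbered 1 but 19.4% and 19.8% in those numbered 2. Junb gave 31.7% and 24.8% in number 1 against 47.1% and 42.1% in number 2, for WT and KO, and Jund gave 24.2% and 25.6% against 33.5% and 38.1%. On FPKM, Junb was 1.24 and 0.866 times the level of Jun in the libraries numbered 1 and 4.22 and 3.68 times in those numbered 2. Within a number the genotypes were far closer than the numbers were. Fos and Fosl2 summed to 33.1 and 36.8 CPM in WT and 34.9 and 29.7 CPM in KO, a sum that overlapped between the numbers. Their make-up did differ by number: Fos gave 47.3% and 41.4% of the pair's counts in the libraries numbered 1 against 26.5% and 24.8% in those numbered 2, for WT and KO.

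**Figure D4:**
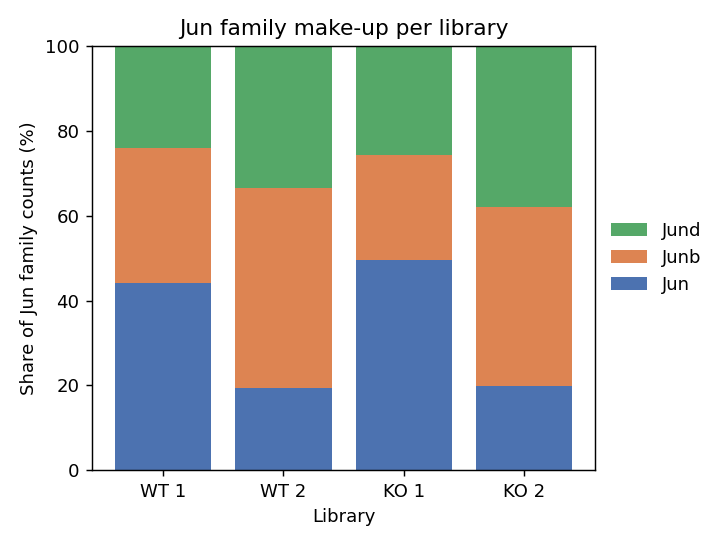
Percent of the summed counts of Jun (blue), Junb (orange) and Jund (green) that each gene gave, per library, as stacked bars. Jun gives the largest share in the libraries numbered 1 and the smallest in those numbered 2, and the bars of WT and KO resemble each other within a number.

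The rest of the pathway was described from lists chosen with earlier results known. Among 12 tested AP-1 and Maf subunits besides the 10 genes, 0 were called between genotypes and 0 had an unadjusted edgeR p under 0.05. The median log2 fold change was -0.01, but it was 0.70 without WT replicate 2 and -0.78 without KO replicate 2. The 2 with the highest mean CPM, which is not corrected for length, were Mafg (40.7 and 96.1 CPM in WT, 55.3 and 107 CPM in KO), a small Maf partner, and Maf (43.7 and 70.9 against 61.5 and 48.6 CPM), a macrophage factor. By number, 6 of the 12 were higher and 1 lower in number 2, against 25.2% and 23.2% of all genes. Maff, a small Maf partner picked after its values were seen, had 2.22 and 33.4 CPM in WT and 3.75 and 28.0 CPM in KO. Batf, a partner of Jun proteins picked likewise, had 18.6 and 108 CPM in WT and 13.2 and 78.4 CPM in KO. Fosb was barely detected, at 1 count in WT 2 and 0 in the other libraries.

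Among 39 tested genes of the wider immediate early class, 0 were called between genotypes by the quasi-likelihood test. The edgeR exact test called 1, Ccn2 (adjusted p 0.0251), where it called 1.84% of all genes. With a term for the replicate number, the quasi-likelihood test also called 1, Ccn2 (edgeR adjusted p 0.00070), where it called 5.35%. The median log2 fold change of the 39 genes was -0.10. It was 0.37 without WT replicate 2, 0.11 without KO replicate 1, -0.32 without WT replicate 1 and -0.23 without KO replicate 2. At an unadjusted edgeR p under 0.05, 2 were higher and 1 lower in KO, against 4.64% and 1.99% of all genes. Dusp1, a phosphatase that shuts off MAP kinases, had 41.1 and 34.2 CPM in WT and 24.2 and 24.9 CPM in KO (log2 fold change -0.62, SE 0.22, edgeR adjusted p 0.679). Ccn2 and Ccn1, matricellular proteins induced by serum in fibroblasts, were the higher ones. For Ccn2 the WT libraries held 4 and 5 counts and the KO libraries 38 and 25 (log2 fold change 2.53, SE 0.55, edgeR adjusted p 0.300), and for Ccn1 they held 12 and 15 against 37 and 38 (1.21, SE 0.41, adjusted p 0.643). The stromal markers moved with them: all 9 that were tested lay above 0, with a median log2 fold change of 2.18, and 7 of the 9 had an unadjusted edgeR p under 0.05. Their part in the values of Ccn1 and Ccn2 was not tested.

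By number, 20 of these 39 genes were higher and 9 lower in number 2, against 25.2% and 23.2% of all genes. The 3 genes with the widest gaps, as the mean log2 ratio of both genotypes, were Nfkbiz, Nfkbia and Tnfaip3, picked after their values were seen. Nfkbia, an inhibitor of NF-kappaB, had 32.2 and 533 CPM in WT and 25.5 and 388 CPM in KO. Nfkbiz, a nuclear cofactor, had 4.50 and 198 CPM in WT against 6.01 and 139 CPM in KO, while Tnfaip3, a ubiquitin-editing inhibitor, had 19.1 and 295 CPM against 39.5 and 223 CPM. In both genotypes all 3 had a wider gap than Ier3.

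The kinases and factors upstream of these genes showed no call among 30 tested, with 0 at an unadjusted edgeR p under 0.05 and a median log2 fold change of 0.04. Mapk3, which encodes the kinase ERK1, had the highest mean CPM, with 227 and 218 CPM in WT against 205 and 214 CPM in KO. It was close to level in all 4 libraries, and 8 genes of the list were higher and 8 lower in number 2, against 25.2% and 23.2% of all genes. Of 16 corepressors and factors that degrade these proteins or mRNAs, 0 were called and 0 had an unadjusted edgeR p under 0.05. Their median was 0.17, with 13 above 0 against 54.6% of all genes, and after the gene length correction it was -0.02. The 2 with the highest mean CPM were Cops5, a Jun-binding signalosome subunit (111 and 112 CPM in WT against 71.1 and 99.3 CPM in KO), and Cnot1, the scaffold of the deadenylase complex (81.0 and 106 against 118 and 118 CPM). By number, 7 of the 16 were higher and 2 lower in number 2, where the shares of all genes were 25.2% and 23.2%.

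Among 16 textbook AP-1 targets, 0 were called by the quasi-likelihood test, and the median log2 fold change was -0.39. With a term for the replicate number it called 1, Dcstamp (edgeR adjusted p 0.00108), where it called 5.35% of all genes. That median was 0.45 without WT replicate 2, 0.04 without KO replicate 1, -0.75 without WT replicate 1 and -0.86 without KO replicate 2. At an unadjusted edgeR p under 0.05, 1 target was higher and 1 lower in KO, against 4.64% and 1.99% of all genes. Ccnd1 (cyclin D1) was higher, with 3.57 and 3.39 CPM in WT and 6.49 and 5.99 CPM in KO. Dcstamp, needed for macrophage fusion, was lower, with 8.01 and 14.5 CPM in WT and 4.13 and 5.89 CPM in KO. Their log2 fold changes were 0.84 (SE 0.29, edgeR adjusted p 0.660) and -1.17 (SE 0.41, edgeR adjusted p 0.663). In number 2, 10 of the 16 targets were higher and 1 was lower, against 25.2% and 23.2% of all genes. Heat shock genes, which are induced when proteins unfold, gave 0 calls and 0 genes at an unadjusted edgeR p under 0.05 among 8, with a median of 0.14. Those with the highest mean CPM were Hspa8 and Hsp90aa1, both chaperones. Hspa8 had 791 and 1126 CPM in WT against 951 and 1291 CPM in KO, while Hsp90aa1 had 282 and 388 against 284 and 371 CPM. By number, 5 of the 8 were higher and 2 lower in number 2, beside the same shares of all genes.

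**Figure D5:**
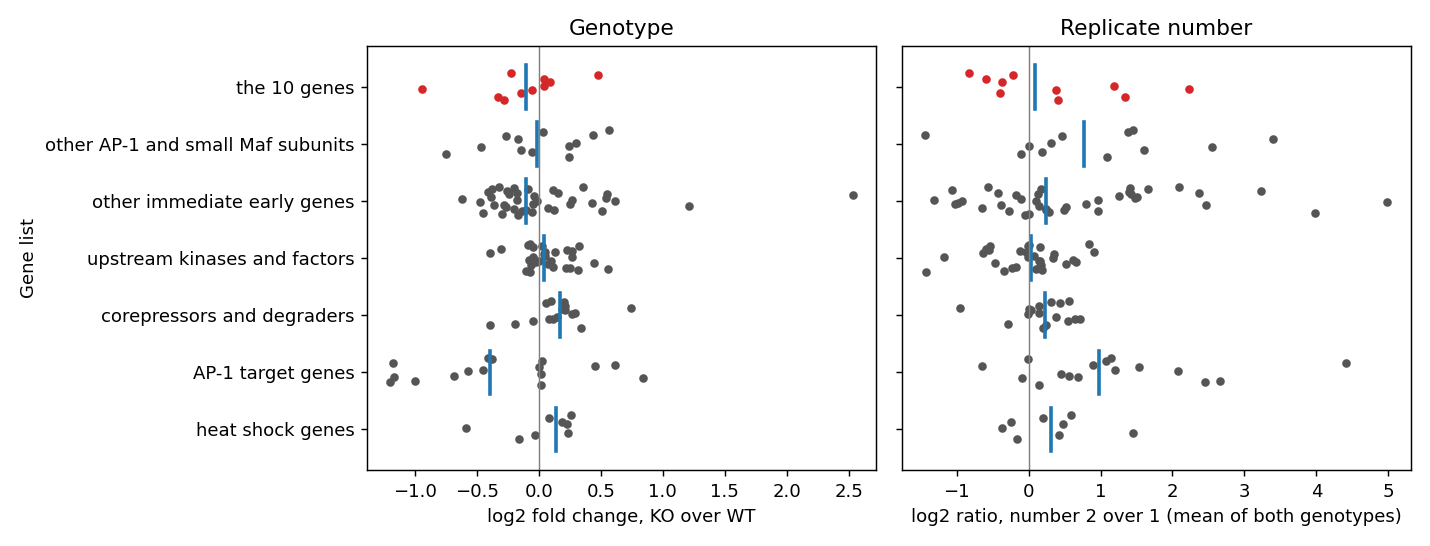
Left, log2 fold change of KO to WT for the 10 genes (red) and each other list (grey), 1 point per tested gene; right, log2 ratio of number 2 to number 1, averaged over both genotypes. Blue lines are list medians, which run from -0.39 to 0.17 on the left and from 0.03 to 0.98 on the right.

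Last, the genes whose pattern over the 4 libraries was nearest to that of Fos were sought among 9409 tested genes with a mean of at least 5 CPM. Likeness was the Euclidean distance between log2 CPM centred on each gene. The nearest were Mtus1 (distance 0.04), Pmp22 (0.10), Acp6 (0.11), Zranb3 (0.12) and Nfil3 (0.12). Mtus1 had 23.6 and 14.8 CPM in WT and 21.1 and 11.1 CPM in KO, the same order of libraries as Fos. None of the 5 belongs to the lists above, and over 4 libraries such closeness is a description only.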

How the data were processed

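Total RNA of 4 macrophage libraries was sequenced. The authors filtered reads with Seqtk, aligned them with HISAT2 2.0.4 and counted fragments per gene with StringTie 1.3.3b (versions also in the submitters' processing notes). They deposited raw counts for 34745 genes, with the authors' FPKM, which is scaled by library total and gene length, beside each count. The processing notes name mm39, but 27686 of the 34267 identifiers shared with GENCODE M21 matched GRCm38 at both ends, and that build is used here.

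The deposited counts went into edgeR 4.0.16 (R 4.3.3): filterByExpr (minimum count 10, minimum total 15), TMM, and glmQLFit and glmQLFTest on genotype alone, two-sided, with Benjamini-Hochberg adjustment over 12418 genes. Genes were called at an adjusted p under 0.05 and a fold change over 2, after the study's methods, which name edgeR but not which of its tests. The study's text does report differentially expressed genes between bone marrow-derived macrophages of these genotypes, whereas the quasi-likelihood test used here called 0. Intervals come from the quasi-likelihood F statistic. CPM use TMM-scaled totals, and ratios within a number have 0.5 counts added. Between 15468 and 16031 genes had a count in a library. With 2 libraries against 2, an exact permutation test of a single value cannot go below a p of 0.333, so none was run. No library was a copy of another (chi-square divided by its degrees of freedom was 22.7 to 125).

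The genes and lists were chosen with earlier results of these data known. Named were the 10 genes, G3bp1, up to 4 genes per list with an unadjusted p under 0.05 and genotypes that did not overlap (otherwise the 2 most abundant), and the 5 nearest to Fos, except that 1 gene the rule selects is not reported here. Fosb, Maff, Batf, Nfkbia, Nfkbiz and Tnfaip3 were named outside it, after their values were seen. Alternatives were DESeq2 1.42.0 size factors and Wald test, the edgeR exact test (estimateDisp, tagwise dispersion), no count filter, a filter at a mean of 1 CPM, no minimum fold change, a replicate term, each library left out, and a loess correction (span 0.5) for gene length. Corrections for GC content, and levels by library totals alone or after either correction, were chosen after seeing the data. The code was tested on simulated data.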

Additional observations from a re-analysis of the deposited data

How the results depend on the processing

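Of 140 values of the 10 genes under alternatives, 21 changed sign, 14 of them among the 40 fits without a library, and 1 passed the threshold. As each library was left out, with the lone library of a genotype assumed to vary like the other genotype, log2 fold changes ran from -0.78 to 0.19 for Fos, -0.33 to 0.26 for Fosl2, -0.36 to 0.36 for Jun, -1.17 to 0.43 for Junb, -0.66 to 0.73 for Jund, -0.030 to 0.85 for Egr1, -0.62 to 0.21 for Egr2, -0.26 to 0.50 for Atf3, -2.42 to 0.56 for Ier3, -0.31 to 0.96 for Mafg, -0.36 to 0.30 for Maf, -0.011 to 0.47 for Hspa8, and -0.24 to 0.18 for Hsp90aa1. Medians ran from -0.25 to 0.058 for the 10 genes, -0.78 to 0.70 for other AP-1 subunits, -0.32 to 0.37 for other immediate early genes, 0.017 to 0.16 for upstream factors, 0.015 to 0.38 for corepressors and degraders, -0.86 to 0.45 for AP-1 targets and -0.085 to 0.18 for heat shock genes. The length correction turned the medians of upstream factors (-0.12), corepressors (-0.020) and heat shock genes (-0.012) below 0, and the GC correction that of upstream factors (-0.035). Jun changed sign in DESeq2's Wald test (-0.0019), with its size factors alone (-0.0018) and after correction for GC (-0.059). Correction for GC turned Jund to -0.15. The GC correction also parted the genotypes for 1 of the 10 genes, Ier2, lower in KO, where without it 36.9% of all tested genes were parted. The cause of these changes was not tested. Over all genes, 0 were called in the quasi-likelihood test, 181 by DESeq2 and 229 by the exact test.

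The labels do not say what the replicate numbers share, and 2 pairs are too few to establish a pairing. Across genes, the deviations of same-numbered libraries had a correlation of 0.69. The replicate block gave 664 calls (5.35% of all tested genes), with 0 of the 10 genes. The calls held 1 other immediate early gene (Ccn2, also called by the exact test, 1 gene) and 1 AP-1 target (Dcstamp). Both stayed called with the block and the length correction (1 gene each) or the GC correction (1 each). Over all genes, these fits called 401 and 488. Ier3 had -0.92 with the block (edgeR adjusted p 0.00373), under the minimum fold change, -0.62 with the block and length correction (adjusted p 0.115), and -1.01 with the block and GC correction (adjusted p 0.0159), where it was the 1 gene of the 10 called. Its adjusted p ran from 0.00373 to 1 over its alternatives. G3bp1 had an adjusted p of 0.0853 with the block and 0.0263 with the block and length correction (edgeR, log2 fold changes -0.60 and -0.76). The median of other AP-1 subunits was 0.085 with the block. Jun had -0.0077 with the block and length correction and -0.083 with the block and GC correction, and Jund -0.14 with the latter. Levels near 1 CPM, such as Egr1, rest on 17 to 42 counts a library.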
